A study of Mus musculus with 5 samples.

Results

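Glutathione and ferroptosis defence was followed in injured mouse kidneys through 10 genes: Gpx4, Acsl4, Slc7a11, Aifm2, Gclc, Gclm, Nqo1, Txnrd1, Gsr and Nfe2l2. They were picked by gene symbol, as textbook members of the pathway, from the 35478 genes that the count tables list. Earlier results of these data were known when they were picked. All 10 were found, and all 10 passed the filter on low counts that left 16394 genes for testing.

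Kidney RNA was sequenced, 1 library per mouse, to ask how loss of Prdm16 in tubules affects gene expression after unilateral ischemia-reperfusion injury (UIRI). The control group was 2 Prdm16fl/fl mice (mice 1 and 3), which carry the floxed Prdm16 allele without Cre. The knockout group was 3 Ksp-Cre/Prdm16fl/fl mice (mice 1, 2 and 3), which carry the same allele together with Ksp-Cre. All were young adult males, and the strain is given as C57BL/6J in the labels and as C57BL/6J;129 in the study's methods. All had UIRI, in which the vessels of the left kidney were clamped for 35 min on a metal bath at 38.5°C. The right kidney was taken out on day 10, and tissue was collected 24 hours later, on day 11. No uninjured kidney is part of the comparison, so every value below is a level in injured tissue. Ksp-Cre acts in tubular epithelium only, whereas the RNA came from whole kidney tissue, named as cortex in the study's methods, so cells outside the tubules keep Prdm16.

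Ferroptosis is a form of cell death in which lipid peroxides build up in membranes in an iron-dependent way, and the kidney tubule is one of the tissues known to be prone to it after ischemia. The cell holds it back mainly with glutathione, which is made from imported cystine and is spent by the selenoenzyme GPX4 to reduce lipid peroxides. ACSL4 works against this defence, because it loads membranes with the polyunsaturated fatty acids that peroxidize most readily. Nrf2, the transcription factor encoded by Nfe2l2, binds antioxidant response elements (AREs) and switches on many of the genes for glutathione synthesis and for NADPH-dependent reduction.

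The ARE core, TGACNNNGC on either strand, was searched in the RefSeq promoter windows, which run from 250 bases before to 50 bases after a start site (GRCm38.p6). Windows were at hand for 8 of the 10 genes, 13 windows in all, and the core was found in 3 of the 8. Over all genes, 14.0% of 27025 held the core in at least 1 window. The 3 stretches are shown because these members carry the sequence that Nrf2 recognises next to their start site, with the 9 bases of the core in capitals and up to 15 bases on either side. Each reads 5′ to 3′ along the strand of its gene. The Nfe2l2 stretch is chr2:75704880-75704913 on the minus strand, with the core beginning 240 bases before the start site. The Gclm stretch is chr3:122245408-122245446 on the plus strand, with the core in reverse orientation 134 bases before the start site. The Txnrd1 stretch is chr10:82859099-82859137 on the plus strand, with the core in reverse orientation 92 bases before the second of 3 start sites.
Nfe2l2: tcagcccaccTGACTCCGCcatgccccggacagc
Gclm: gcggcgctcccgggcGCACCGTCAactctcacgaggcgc
Txnrd1: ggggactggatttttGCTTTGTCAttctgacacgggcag
These letters were not in the windows of Gpx4 (4 windows), Acsl4, Slc7a11, Aifm2 or Nqo1. Gclc and Gsr were not searched. A match is a description of the sequence and not a binding site.

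Read totals were 15215871 and 14939040 in the Prdm16fl/fl mice and 15470435 to 16425161 in the Ksp-Cre/Prdm16fl/fl mice. Levels are given as CPM, read counts relative to the TMM-scaled library size, unless stated, and a gene is called changed at an edgeR adjusted p under 0.05. Ksp-Cre/Prdm16fl/fl mouse 3 stood apart: a chi-square of counts per degree of freedom was 9.89 for the other two mice of that genotype, and 74.5 and 62.7 for each of them paired with mouse 3, so results that turn on mouse 3 are also given without it. Prdm16 itself was at 25.3 and 20.0 CPM in the Prdm16fl/fl mice and at 17.1, 17.0 and 18.0 CPM in the Ksp-Cre/Prdm16fl/fl mice. The groups did not overlap, in the direction of the labels, but the log2 fold change of -0.38 (SE 0.15) did not pass (edgeR adjusted p = 0.259), and the estimate moved to -0.21 without Prdm16fl/fl mouse 1 and to -0.54 without Prdm16fl/fl mouse 3. That count covers the whole gene in all cell types of the tissue, not the floxed exon alone.

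None of the 10 genes was called changed between the genotypes (0 of 10), where 0.976% of all genes tested were called, 17 higher and 143 lower. Scaling by library size instead of TMM gave 14 higher and 37 lower. At an unadjusted edgeR p under 0.05 there were 3 members, Gpx4, Acsl4 and Nfe2l2, beside 18.8% of all genes (7.64% higher and 11.2% lower). With DESeq2, Gpx4 alone was called among the members, beside 7.54% of all genes (1.98% higher and 5.56% lower). The 10 log2 fold changes split evenly, with 5 above and 5 below 0, and their median was 0.05, where the median of all genes tested was 0.04. In 4 members the groups did not overlap (Nfe2l2, Slc7a11 and Acsl4 higher in all 3 Ksp-Cre/Prdm16fl/fl mice, Gpx4 lower), against 41.6% of all genes.

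**Figure D1:**
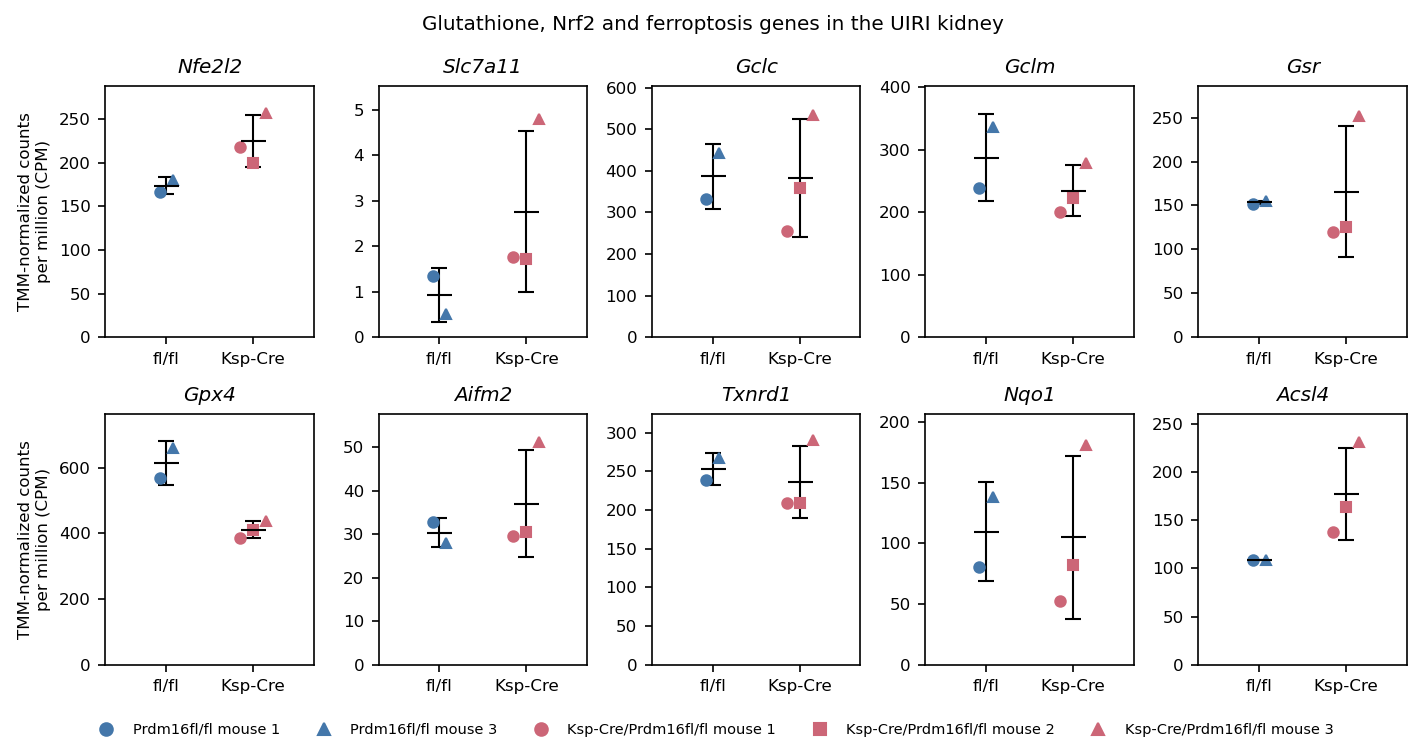
TMM-normalized CPM of the 10 genes (y axis, from 0, 1 panel per gene) in Prdm16fl/fl (blue, n = 2) and Ksp-Cre/Prdm16fl/fl (red, n = 3) UIRI kidneys, with 1 point per mouse, horizontal bars for the mean and error bars for the SD. Gpx4 lies lower in all 3 Ksp-Cre/Prdm16fl/fl mice (387 to 437 CPM) than in both Prdm16fl/fl mice, Acsl4 lies higher (138 to 230 CPM), and in the panels of Gsr, Aifm2 and Nqo1 mouse 3 of the Ksp-Cre group lies far above the other two.

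Per length, Gpx4 was the most abundant of the 10 transcripts. In FPKM, the deposited level per kilobase of merged exons and library size, it reached a mean of 399 with an SD of 30.5 (n = 2) in the Prdm16fl/fl kidneys. The 2 subunits of the ligase that makes the first bond of glutathione followed, Gclm at 132 FPKM and Gclc at 99.1 FPKM. Txnrd1 (59.9 FPKM), Gsr (54.8 FPKM), Nfe2l2 (43.3 FPKM) and Nqo1 (31.0 FPKM) lay in the middle. Acsl4 had 18.7 FPKM, Aifm2 5.17 FPKM and Slc7a11 only 0.0950 FPKM. Neighbours in this order did not overlap over the 2 mice, the closest being Gclc at up to 111 FPKM and Gclm from 112 FPKM. In the Ksp-Cre/Prdm16fl/fl kidneys Gpx4 was again highest at 289 FPKM and Slc7a11 lowest at 0.296 FPKM.

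The gene with the smallest p among the members was Gpx4 (gene-Gpx4, chromosome 10, 79883000 to 79892273 in the coordinates of the files), which encodes the enzyme that reduces lipid peroxides inside membranes. It was at 567 and 660 CPM in the Prdm16fl/fl mice and at 387, 409 and 437 CPM in the Ksp-Cre/Prdm16fl/fl mice. The lowest Prdm16fl/fl kidney thus lay above the highest Ksp-Cre/Prdm16fl/fl kidney, and the ratio of the group means was 0.670. The log2 fold change was -0.58 (SE 0.14), with an unadjusted p of 0.00605 and an adjusted p of 0.112 in edgeR. DESeq2 gave the same size with an adjusted p of 0.00800, so the call for Gpx4 depended on the tool, and over all alternatives run the adjusted p ranged from 0.00800 to 0.648 while the log2 fold change stayed between -0.69 and -0.46. Without mouse 3 of the Ksp-Cre group the value was -0.62, and edgeR called it (adjusted p = 0.00901).

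Acsl4 (chromosome X, 141100989 to 141173792), whose product prepares the peroxidizable membrane lipids, pointed the other way. Its level was 109 CPM in both Prdm16fl/fl mice and 138, 164 and 230 CPM in the Ksp-Cre/Prdm16fl/fl mice, a ratio of means of 1.63 with no overlap. The log2 fold change of 0.70 (SE 0.23) had an unadjusted p of 0.0217 and did not pass the adjustment in edgeR (adjusted p = 0.187). Leaving out mouse 3 lowered the estimate to 0.47 and brought the adjusted p to 0.0211, and the range over all alternatives was 0.0211 to 0.723. Without that mouse 18.9% of all genes were called, so the share of called genes was itself larger in that fit.

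Set against each other within a library, the FPKM of Gpx4 was 19.7 and 22.9 times that of Acsl4 in the Prdm16fl/fl mice and 10.6, 9.45 and 7.18 times in the Ksp-Cre/Prdm16fl/fl mice. The mean ratio was 21.3 ± 2.28 (SD, n = 2) and 9.09 ± 1.75 (SD, n = 3). This ratio does not depend on how libraries are scaled to each other. It was formed after the values of both genes had been seen, so it is a description and was not tested.

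**Figure D2:**
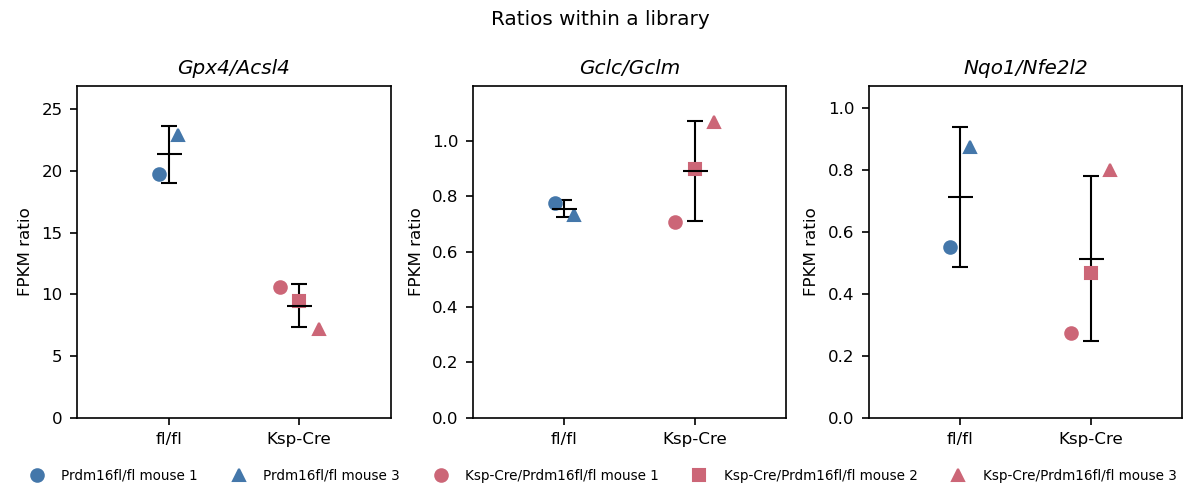
Ratio of the FPKM of a pair of genes within each library (y axes, from 0, no unit) for Gpx4 over Acsl4, Gclc over Gclm and Nqo1 over Nfe2l2, with 1 point per mouse, the mean and the SD (n = 2 and n = 3). The Gpx4 to Acsl4 ratio is 19.7 and 22.9 in the Prdm16fl/fl mice and lies from 7.18 to 10.6 in the other genotype, while the groups overlap in the other 2 ratios.

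Cystine enters through the xCT antiporter, whose transport subunit is encoded by Slc7a11 (chromosome 3, 50319385 to 50403947). Its reads were few: 20 and 7 counts in the Prdm16fl/fl mice and 31, 29 and 72 counts in the Ksp-Cre/Prdm16fl/fl mice. On the CPM scale that was 1.35 and 0.502 against 1.76, 1.71 and 4.80, with no overlap but with mouse 3 far above the other two. The log2 fold change was 1.55 (SE 0.68), the largest of the 10 and the least precise (edgeR unadjusted p = 0.0622, adjusted p = 0.293). Without mouse 3 of the Ksp-Cre group it was 0.89, and without Prdm16fl/fl mouse 1 or mouse 3 it was 2.43 or 1.02. Slc3a2, the partner subunit of xCT, was at 194 and 199 CPM against 153, 145 and 293 CPM, so the groups overlapped.

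Glutathione is built by glutamate-cysteine ligase, with its catalytic subunit from Gclc (chromosome 9, 77661817 to 77701771) and its modifier subunit from Gclm (chromosome 3, 122039206 to 122060864). Gclc was at 331 and 442 CPM in the Prdm16fl/fl mice and at 254, 358 and 534 CPM in the Ksp-Cre/Prdm16fl/fl mice, so the knockout group spanned the control group on both sides. Its log2 fold change was -0.02 (SE 0.32, edgeR adjusted p = 0.983), and the sign turned to 0.08 when libraries were scaled by their size. Gclm was at 238 and 337 CPM against 201, 223 and 279 CPM, with a log2 fold change of -0.29 (SE 0.21, edgeR adjusted p = 0.499). Gclc was at 0.777 and 0.733 times the FPKM of Gclm in the Prdm16fl/fl mice and at 0.707, 0.898 and 1.07 times in the Ksp-Cre/Prdm16fl/fl mice. The groups overlapped in this ratio, and its SD was 0.0312 in the Prdm16fl/fl mice and 0.181 in the Ksp-Cre/Prdm16fl/fl mice.

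Oxidized glutathione is returned to its reduced form by glutathione reductase, encoded by Gsr (chromosome 8, 34143266 to 34188190). Gsr was at 152 and 155 CPM in the Prdm16fl/fl mice, at 119 and 126 CPM in mice 1 and 2 of the Ksp-Cre group, and at 252 CPM in mouse 3. Mice 1 and 2 lay below both controls and mouse 3 above both, and the fitted log2 fold change of 0.11 (SE 0.34, edgeR adjusted p = 0.889) averages over that split. Without mouse 3 the sign turned, to -0.32, and the adjusted p became 0.0479, within a range of 0.0479 to 0.968 over all alternatives.

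Txnrd1 (chromosome 10, 82669785 to 82733558), the cytosolic thioredoxin reductase, was arranged like Gsr. It was at 239 and 267 CPM in the Prdm16fl/fl mice against 209, 209 and 290 CPM, with a log2 fold change of -0.10 (SE 0.19, edgeR adjusted p = 0.808). Scaling by library size brought this value to 0.0048. The same arrangement, with mice 1 and 2 of the Ksp-Cre group below both controls and mouse 3 above both, was found in 6.48% of all genes tested and in these 2 of the 10 members.

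The quinone branch is represented by Aifm2 and Nqo1. Aifm2 (chromosome 10, 61551042 to 61575474) encodes FSP1, which reduces ubiquinone at the plasma membrane and holds back ferroptosis without glutathione. It was at 32.8 and 28.0 CPM in the Prdm16fl/fl mice and at 29.6, 30.5 and 51.1 CPM in the Ksp-Cre/Prdm16fl/fl mice, so mice 1 and 2 lay between the controls (log2 fold change 0.29, SE 0.27, edgeR adjusted p = 0.607). Its exons share 451 bases, 8.0% of their length, with Macroh2a2 on the other strand, and whether counting used the strand is not given in the sources used here. Nqo1 (chromosome 8, 108114856 to 108139012), the NADPH quinone dehydrogenase often read as a gauge of Nrf2 activity, was at 80.8 and 138 CPM against 52.3, 81.9 and 181 CPM. It had the widest relative spread of the members above 10 CPM in both groups, and its log2 fold change of -0.06 (SE 0.53) had an edgeR adjusted p of 0.960.

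Nfe2l2 (chromosome 2, 75505857 to 75535007), which encodes Nrf2, was at 167 and 181 CPM in the Prdm16fl/fl mice and at 218, 200 and 257 CPM in the Ksp-Cre/Prdm16fl/fl mice. All 3 knockout kidneys lay above both controls, with a ratio of means of 1.30. The log2 fold change of 0.37 (SE 0.15) had an unadjusted p of 0.0472 and an adjusted p of 0.260 in edgeR. Over all 15 alternatives it lay between 0.27 and 0.48. With groups that did not overlap, leaving out 1 mouse could hardly turn its direction. The other 2 members with an ARE core next to a start site, Gclm and Txnrd1, had log2 fold changes below 0 (-0.29 and -0.10), and neither passed. Within a library, the FPKM of Nqo1 was 0.552 and 0.872 times that of Nfe2l2 in the Prdm16fl/fl mice and 0.273, 0.467 and 0.800 times in the Ksp-Cre/Prdm16fl/fl mice. The message of the factor and that of its classical target were thus not held in a fixed proportion in either group.

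**Figure D3:**
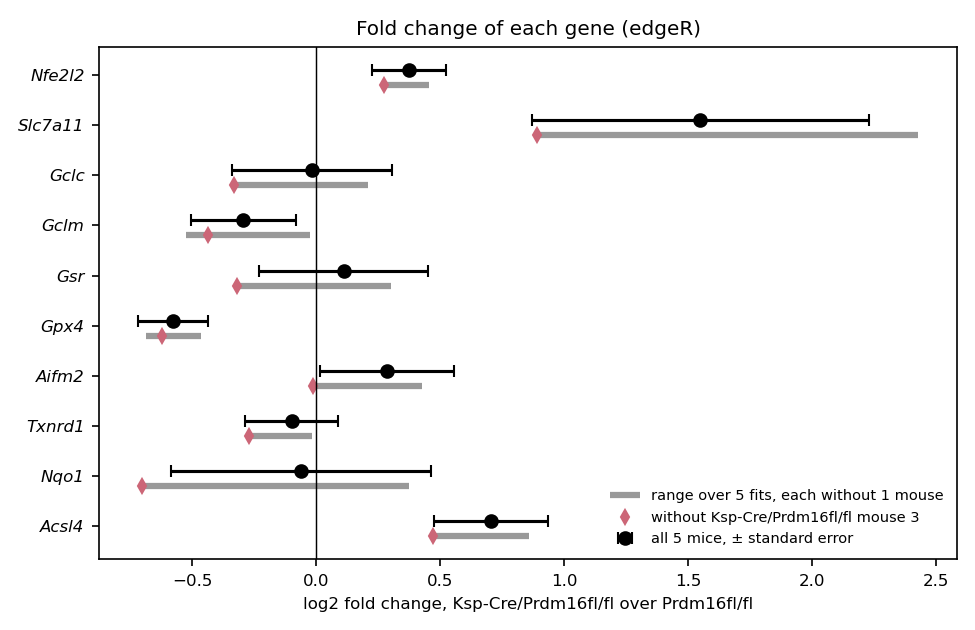
Log2 fold change of each gene, Ksp-Cre/Prdm16fl/fl over Prdm16fl/fl (x axis), from edgeR with all 5 mice (black points, bars are the standard error), the range over 5 fits that each leave out 1 mouse (grey bars) and the fit that leaves out mouse 3 of the Ksp-Cre group (red diamonds). Gpx4 lies left of 0 and Acsl4, Nfe2l2 and Slc7a11 right of 0 in every fit shown, while the grey bars of Gclc, Gsr, Aifm2 and Nqo1 cross 0. The groups of Gpx4, Acsl4, Nfe2l2 and Slc7a11 did not overlap, so leaving out 1 mouse could hardly turn their sign.

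Across the 10 genes, mouse 3 of the Ksp-Cre group was above mice 1 and 2 in all 10, and it was the highest of the 5 libraries in 8. Among all genes tested it was the highest library in 32.0%. On the log2 scale, relative to the mean of the Prdm16fl/fl mice, the median of the 10 genes was -0.32 and -0.18 in mice 1 and 2 and 0.64 in mouse 3. The mouse also differed in markers of some kidney segments. The summed CPM of 4 thick ascending limb markers was 1236 in mouse 3 and 2330 to 3763 in the other 4 mice, and that of 4 distal convoluted tubule markers was 327 against 710 to 1897. Its sums of 6 collecting duct markers (309 CPM) and 12 proximal tubule markers (5825 CPM) lay between those of mice 1 and 2 of its group. By the median of the 12 proximal tubule markers, however, mouse 3 was the lowest. On the log2 scale, relative to the Prdm16fl/fl mean, that median was -1.71 in mouse 3 and -0.94 and -0.66 in mice 1 and 2. None of these markers was at 0 in all libraries, and their part in the values of mouse 3 was not tested.

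Leaving out mouse 3, 3 members were called by edgeR, where 18.9% of all genes were (7.82% higher and 11.0% lower): Gpx4 and Gsr lower, Acsl4 higher. An unadjusted edgeR p under 0.05 was then reached by 7 members, beside 34.2% of all genes. With 2 mice against 2 the groups did not overlap in 7 members, beside 63.7% of all genes. The other 4 with such a p were Nfe2l2 (0.27), Gclm (-0.44), Txnrd1 (-0.27) and Nqo1 (-0.70), given as log2 fold changes. Gclc stood at -0.33 and Aifm2 at -0.01. The median of the 10 log2 fold changes moved from 0.05 to -0.30.

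**Figure D4:**
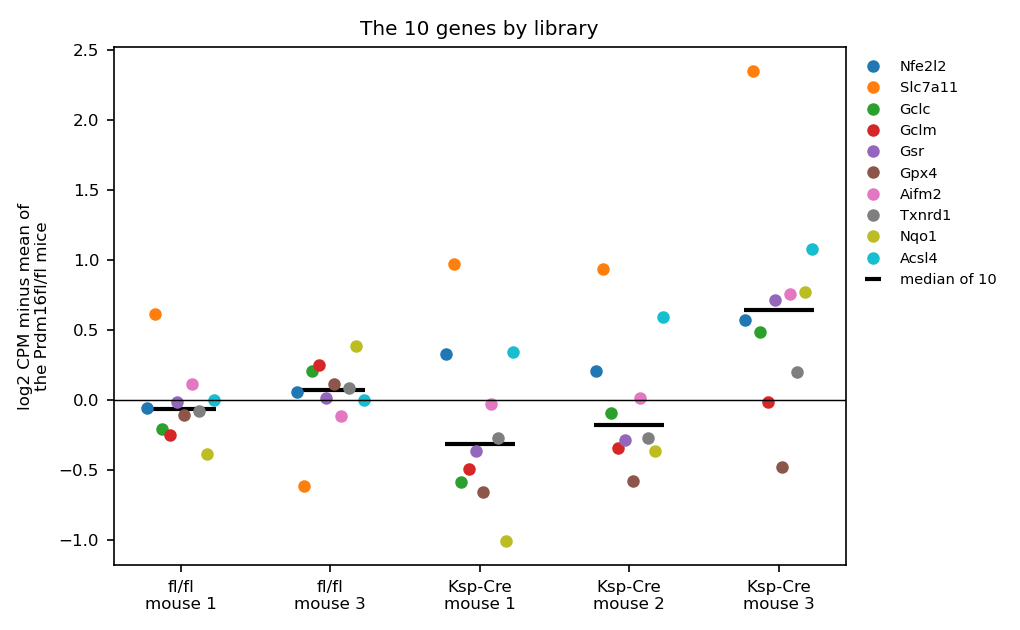
Log2 CPM of each of the 10 genes in each library minus the mean of the 2 Prdm16fl/fl mice (y axis), by mouse (x axis), with 1 colour per gene and black bars for the median of the 10. In the Ksp-Cre group the median is -0.32 in mouse 1, -0.18 in mouse 2 and 0.64 in mouse 3, and Gpx4 is below 0 in all 3.

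Markers of kidney cell types differed between the genotypes as well, and in bulk RNA fewer cells of a type cannot be told apart from less RNA per cell. All 12 proximal tubule markers had log2 fold changes below 0, with a median of -1.01, and their summed CPM was 11269 and 11868 in the Prdm16fl/fl mice and 5357 to 6463 in the Ksp-Cre/Prdm16fl/fl mice. All 8 markers of tubular injury were above 0, with sums of 14964 and 15526 CPM against 32048 to 38170 CPM. The summed 6 fibroblast and pericyte markers were at 378 and 576 CPM against 617 to 911 CPM, those of 8 macrophage markers at 973 and 1368 against 771 to 1581 CPM, and those of 4 podocyte markers at 579 and 448 against 300 to 331 CPM. The widest gap was in 5 erythroid markers, which summed to 6.67 and 10.8 CPM against 151, 150 and 40.5 CPM in mice 1, 2 and 3, with a median log2 fold change of 3.93. None of these 5 was called by edgeR, although all 5 had an unadjusted p under 0.05, and all 5 were called by DESeq2. No marker of these lists was at 0 in all libraries. Between the genotypes Gpx4 was lower, as was the proximal tubule sum, and Acsl4 was higher, as was the injury sum. Within the Ksp-Cre group Gpx4 was highest in mouse 3 (437 CPM), whereas the proximal tubule sum was highest in mouse 2 (6463 CPM). Acsl4 and the injury sum were both highest in mouse 3. The part of either sum in the 2 genes was not tested.

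The 5 tested genes whose pattern over the 5 libraries was most like that of Gpx4 were Tmem174, Shpk, Mrps11, Amn and Mpp3, at distances of 0.047 to 0.069 log2 units (Euclidean distance of log2 CPM centred on the mean of each gene). Their log2 fold changes lay between -0.60 and -0.53, which follows from picking them by pattern, and none was called. Amn is the partner of cubilin in the endocytic receptor of the proximal tubule, and the other neighbours were not assigned to a cell type here. Among the members, Gclm and Txnrd1 were closest to each other, at 0.33 log2 units, followed by Gsr and Aifm2 at 0.38.

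Around the 10 genes, 7 further lists of the pathway held 160 genes of the files, of which 153 were tested. In edgeR 9 of them fell and none rose, where 0.872% of all genes tested were called lower and 0.104% higher. At an unadjusted edgeR p under 0.05 there were 46 lower and 9 higher, where all genes gave 11.2% and 7.64%. DESeq2 called 23 lower and 3 higher, where all genes with a DESeq2 adjusted p gave 5.56% and 1.98%. The groups did not overlap in 66 that were lower and in 20 that were higher, where all genes gave 21.3% and 20.3%. All 9 calls were lost in at least 7 of the 15 alternatives, among them each fit that left out a mouse other than mouse 3 of the Ksp-Cre group.

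The supply and turnover of glutathione held 5 of the 9 calls, among 19 genes tested, with a median log2 fold change of -0.41. These 5 calls were 26.3% of the list, beside 0.976% of all genes tested. Ggt1, the gamma-glutamyl transferase that breaks down glutathione on the brush border, was at 651 and 721 CPM in the Prdm16fl/fl mice and at 238, 292 and 277 CPM in the Ksp-Cre/Prdm16fl/fl mice. It fell by 1.35 on the log2 scale (SE 0.15, edgeR adjusted p = 0.0366), with groups far apart. Dpep1, a dipeptidase of the same membrane that splits the next product, fell by 1.43 (SE 0.19, edgeR adjusted p = 0.0412), from 102 and 94.4 CPM to 38.3, 27.8 and 43.0 CPM. Ggct, a cytosolic gamma-glutamyl cyclotransferase, fell by 1.19 (SE 0.15, edgeR adjusted p = 0.0412). The other 2 calls, named after their values were seen, were Cbs, which makes cystathionine on the way from homocysteine to cysteine, and Chac2, which degrades glutathione in the cytosol, at -1.30 and -1.28. Ggt7 had the smallest p among the genes above 0 (0.29, edgeR adjusted p = 0.624). The called genes thus act in breakdown and in cysteine supply. Ggt1 and Dpep1 are themselves abundant in the proximal tubule, whose 12 markers were lower in the same mice. The part of the proximal tubule in the fall of Ggt1 and Dpep1 was not tested.

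Among 26 glutathione peroxidases, thioredoxins, peroxiredoxins and dismutases tested, the median was -0.32 and 1 was called (3.8%, beside 0.976% of all genes). Sod2, the mitochondrial superoxide dismutase, was at 277 and 297 CPM against 163, 154 and 138 CPM and fell by 0.92 (SE 0.13, edgeR adjusted p = 0.0443). Gpx7, a peroxidase of the endoplasmic reticulum, had the smallest p in the other direction, at 4.18 and 4.02 CPM against 8.29, 7.27 and 6.06 CPM (0.81, SE 0.24, edgeR adjusted p = 0.154). In 17 genes of this list the groups did not overlap with lower levels in the Ksp-Cre/Prdm16fl/fl mice, and in 4 with higher levels. Over all genes tested the shares were 21.3% lower and 20.3% higher.

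The other genes that restrain ferroptosis had 2 calls among 31 tested (6.5%, beside 0.976% of all genes) and a median of -0.37. Qdpr, which regenerates the radical-trapping cofactor tetrahydrobiopterin, was at 311 and 310 CPM against 173, 174 and 160 CPM and fell by 0.88 (SE 0.11, edgeR adjusted p = 0.0412). Cisd1, an iron-sulfur protein of the outer mitochondrial membrane, fell by 0.96 (SE 0.14, edgeR adjusted p = 0.0484), from 179 and 207 CPM to 112, 91.6 and 94.9 CPM. Slc40a1, the iron exporter ferroportin, was at 88.2 and 84.5 CPM against 134, 147 and 104 CPM (0.58, SE 0.17, edgeR adjusted p = 0.156). The groups of Slc40a1 did not overlap.

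Of 22 genes that promote ferroptosis, 1 was called (4.5%, beside 0.976% of all genes), with a list median of -0.02. Nox4, the NADPH oxidase of tubule cells that yields hydrogen peroxide, was at 246 and 282 CPM against 147, 137 and 141 CPM and fell by 0.90 (SE 0.12, edgeR adjusted p = 0.0412). Ptgs2, the inducible cyclooxygenase that is often used as a marker of ferroptosis, was low everywhere, at 1.82 and 1.08 CPM against 3.52, 3.84 and 2.93 CPM (1.24, SE 0.35, edgeR adjusted p = 0.140).

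No gene was called by edgeR among the 16 regulators and partners of Nrf2 (median 0.12), among its 29 other targets (median -0.06) or among the 10 genes of selenoprotein synthesis (median -0.16). At an unadjusted edgeR p under 0.05 these 3 lists had 0, 2 and 1 genes above 0 and 1, 6 and 2 below. DESeq2 called 0, 2 and 1 higher and 0, 4 and 0 lower. Over all genes the shares were 7.64% higher and 11.2% lower for the former, and 1.98% higher and 5.56% lower for DESeq2. The smallest p of each direction belonged to Maff (0.32) and Rbx1 (-0.34) among the regulators, to Abcc4 (0.56) and Gsta3 (-0.87) among the targets, and to Lrp8 (1.60) and Sepsecs (-0.41) among the selenoprotein genes, as log2 fold changes. Keap1, the sensor that holds Nrf2 in the cytosol, was at 50.9 and 47.2 CPM against 53.2, 50.0 and 53.8 CPM, so the groups overlapped. Gsta3, a glutathione transferase, came nearest to a call, at 122 and 123 CPM against 56.3, 70.9 and 74.1 CPM (SE 0.15, edgeR adjusted p = 0.0548).

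**Figure D5:**
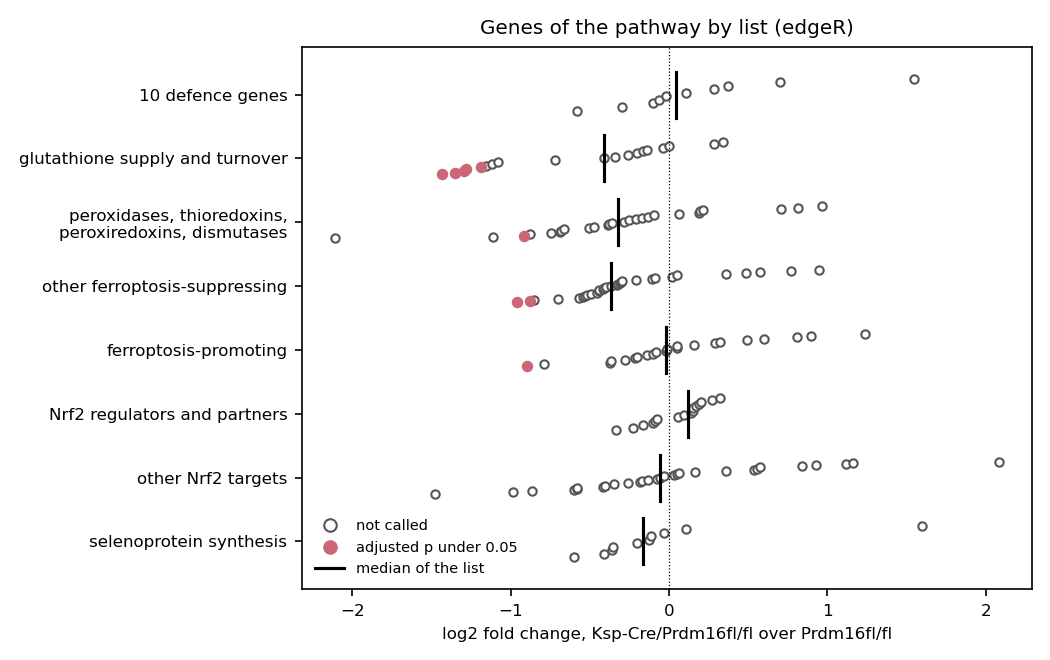
Log2 fold change, Ksp-Cre/Prdm16fl/fl over Prdm16fl/fl (x axis), of every tested gene in the 10 defence genes and in 7 further lists of the pathway (rows), with filled red points for an edgeR adjusted p under 0.05, open points for all others and black bars for the median of a list. The 9 called genes all lie left of 0, 5 of them in glutathione supply and turnover, and none of the 10 defence genes is called.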

How the data were processed

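Kidney RNA-seq of 5 UIRI mice was analysed, grouped by the genotype in the labels. Members and lists were chosen with earlier results of these data known. Per the labels, the extracted molecule was total RNA, and the study's methods state that mRNA was isolated from it with oligo(dT) beads. The submitters' processing notes name CASAVA, featureCounts 2.0.1, DESeq2 1.16.1 and hg38, a human build. The aligner and strand setting are not given in the sources used here. Positions of genes are as the files give them, with no build named. They differ from GRCm38.p6, the build of the promoter windows, so positions of genes and windows cannot be compared directly.

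The authors deposited raw counts per gene, and TPM and FPKM computed from the counts and the merged exon length. Both were recomputed and differed by rounding only. Broken lines of 5 genes were rejoined. Of the genes listed, 9845 had no count in any library, and mitochondrially encoded genes were not analysed here.

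Genes were filtered with filterByExpr (16394 kept), scaled with TMM and tested with the quasi-likelihood test of edgeR 4.0.16 (R 4.3.3) without covariates, with Benjamini-Hochberg adjustment over all genes. CPM uses TMM-scaled library sizes. Named genes were the 10 members, Prdm16, at most 3 called genes per direction of each list or else the smallest p in each direction, and the 5 genes nearest to Gpx4. Slc3a2 and Keap1 were named after their values were seen. Of 161 listed pathway genes, 160 matched a symbol. No set test was run.

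Alternatives were DESeq2 1.42.0, 2 other count filters, scaling by library size or upper quartile, limma 3.58.1 on log2(FPKM + 1) and log2(FPKM + 0.1), a loess correction for length and GC content of genes, the mouse number as a block, a log2 fold change of at least 1, and leaving out each mouse. The tests were checked on simulated counts. Promoter sequences are from RefSeq. Tables and figures used Python 3.11.15, pandas 2.3.3 and matplotlib 3.10.9.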

Additional observations from a re-analysis of the deposited data

How the results depend on the processing

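The number of members called was 0 under every alternative except DESeq2, which called 1 (Gpx4), and leaving out mouse 3 of the Ksp-Cre group, which called 3. Leaving out each mouse in turn gave 0 to 3 members called, 0 to 7 with an unadjusted p under 0.05 (7.81% to 34.2% of all genes) and 4 to 7 whose groups did not overlap (49.1% to 63.7% of all genes). Over all genes, 160 calls (17 higher) became 1183 with DESeq2 (311 higher), 471 without a filter on low counts, 51 with scaling by library size (14 higher), 53 and 13 with limma on log2(FPKM + 1) and log2(FPKM + 0.1), 0 with limma on log2(FPKM + 1) without a filter, 43 with the length and GC correction, and 0 to 3053 without 1 mouse, the last without Ksp-Cre/Prdm16fl/fl mouse 3 (1266 higher) and 0 without any one of the other 4. Calls in the wider lists, 9 at first, became 26, 16, 1, 1, 0, 0 and 1 in the same order, and 0 to 61 without 1 mouse. Gclc had a log2 fold change above 0 with scaling by library size (0.0821), with limma on log2(FPKM + 1) with or without a filter (0.0435) and on log2(FPKM + 0.1) (0.0436), and with the length and GC correction (0.0103). Scaling by library size also turned Txnrd1 (0.0048) and Nqo1 (0.0258), as the median of all genes went from 0.04 to 0.15. Without 1 mouse, the sign turned in Gclc (-0.33 to 0.21), Nqo1 (-0.70 to 0.37), Gsr (-0.32 to 0.30) and Aifm2 (-0.0142 to 0.43). The cause was not tested for any of these. Of 162 values of the members and Prdm16 under an alternative, 144 kept direction and call, 15 turned and 3 gained a call in the same direction. Gsr without Ksp-Cre/Prdm16fl/fl mouse 3 both turned and gained a call, so 4 gained one in all. Slc7a11 could not be tested with at least 10 counts in every library or with the FPKM filter. The mouse numbers are shared between genotypes. Deviations of same-numbered mice from their group means had correlations of 0.0010 and -0.022. The deviations of the 2 control mice mirror each other, so these correlations cannot decide whether the numbers mark pairs. With the number as a replicate block, edgeR called 0 members, 0 genes of the wider lists and 0 genes in all, with 2 members at an unadjusted p under 0.05. The values of Slc7a11 rest on few reads.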

Other observations

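Several other Nrf2 targets and NADPH-producing genes, named here after their values were seen, had their highest level in Ksp-Cre/Prdm16fl/fl mouse 3. Hmox1, the inducible heme oxygenase, was at 37.1 and 39.7 CPM in the Prdm16fl/fl mice and at 45.9, 59.8 and 153 CPM in the Ksp-Cre/Prdm16fl/fl mice (edgeR adjusted p = 0.302). Srxn1, the sulfiredoxin that repairs overoxidized peroxiredoxins, was at 92.5 and 89.7 CPM against 102, 118 and 314 CPM (edgeR adjusted p = 0.361). In both genes mice 1 and 2 lay above both controls, and mouse 3 lay far above mice 1 and 2. Pgd, a NADPH-producing enzyme of the pentose phosphate pathway, was at 175 and 178 CPM against 180, 194 and 396 CPM. Over the 29 other Nrf2 targets tested, the median log2 level relative to the Prdm16fl/fl mean was -0.29 and -0.20 in mice 1 and 2 and 0.36 in mouse 3. By edgeR with all 5 mice, none of these genes was called between the genotypes. DESeq2 called 2 of the other Nrf2 targets higher and 4 lower, beside 1.98% and 5.56% of all genes.

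Another pair of glutathione peroxidases, Gpx3 and Gpx1, was also read after its values were seen. Gpx3, the secreted peroxidase that the proximal tubule makes in large amounts, was at 22869 and 23292 CPM in the Prdm16fl/fl mice and at 10293, 9805 and 17560 CPM in the Ksp-Cre/Prdm16fl/fl mice (log2 fold change -0.88, SE 0.32, edgeR adjusted p = 0.208). All 3 lay below both controls, with mouse 3 nearest to them. Gpx1, the general cytosolic peroxidase, was at 1392 CPM in both Prdm16fl/fl mice and at 1161, 1259 and 1494 CPM in the Ksp-Cre/Prdm16fl/fl mice, so the groups overlapped.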
